A study of Homo sapiens with 4 samples.

Results

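The KRAB zinc finger family is concentrated on chromosome 19, and binding of FLI1 was examined here at the 240 protein-coding genes of that chromosome whose symbol is ZNF followed by a number, out of 20046 protein-coding genes in the GENCODE 44 annotation of GRCh38. The symbol rule uses no measured value, and it takes in some zinc finger genes without a KRAB domain. Binding was measured by ChIP-seq with an antibody to the Flag tag in HK1, a cell line from nasopharyngeal carcinoma, made to overexpress FLI1 with a Flag tag. The cells received PBS (the control) or IFN-γ for 24 h, and Flag-FLI1 was overexpressed in both groups, so the endogenous FLI1 of the cells is not seen. There was 1 Flag library per condition and 1 matching input, and the 2 input libraries are not analysed here. With 1 library per condition the effect of IFN-γ was not tested, and differences between the libraries are given as values with counting error only.

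FLI1 is an ETS family transcription factor, and ETS proteins bind DNA at a GGAA core whose flanking bases set the affinity. C2H2 zinc finger proteins read DNA with arrays of fingers, and in most of these genes the whole array is encoded by the long last exon. Many also carry a KRAB domain, which recruits TRIM28 (KAP1) and, through it, the methyltransferase *SETDB1* and HP1 proteins to silence chromatin, often over transposable elements. The genes lie in tandem clusters that grew largely by duplication, so neighbouring genes often have related promoters.

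The deposited peak lists held 30819 peaks in the control and 39654 in the IFN-γ library, of which 1606 (5.21%) and 1673 (4.22%) lay on chromosome 19. Each peak has a fold enrichment over the local background at its summit, and the number of fragments piled up there was recovered from the fold enrichment and the p-value. The median pileup was 16 fragments in the control list and 22 fragments in the IFN-γ list, and the IFN-γ library was 1.46 times as deep by its lowest background. Where a list has no peak, the signal did not pass that library's cutoff, and FLI1 may still have been bound there.

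The ETS sites in the promoters are shown first, because the results by gene and by cluster refer to them. They are octamers CCGGAAGT or CAGGAAGT, the leading bases of the FLI1 motif with either base at the second position, searched on both strands in the canonical promoter (250 bp before to 50 bp after the start site of the canonical transcript) and printed 5′ to 3′ on the octamer's own strand in GRCh38 with the octamer in capitals. In the cluster at the distal end of the chromosome (57.2 to 58.5 Mb), the genes shown share the bases that follow the octamer, and the last of these genes to be listed had no peak.
ZNF419 (chr19:57487721-57487750, minus strand): caaacgagacgCCGGAAGTcccgcccattg
ZNF773 (chr19:57499857-57499886, minus strand): gaggggagacgCCGGAAGTcccgcccattg
ZNF550 (chr19:57559842-57559871, plus strand): cgccagcgaggCCGGAAGTcccgcccctgt
ZNF134 (chr19:57614213-57614242, minus strand): cgaggaagataCCGGAAGTcccgcccagag
ZNF671 (chr19:57727623-57727652, plus strand): acaaggaggagCCGGAAGTcccgcccacgc

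In the cluster from 43.5 to 44.5 Mb, the 4 genes shown have the octamer preceded by A and followed by G, and all 4 had a promoter peak in both libraries.
ZNF155 (chr19:43984183-43984212, minus strand): ctgctcggagaCCGGAAGTgtcgatgatgc
ZNF230 (chr19:44002937-44002966, minus strand): aggctcacacaCCGGAAGTgctcgcgtctc
ZNF222 (chr19:44025309-44025338, minus strand): acagttggggaCCGGAAGTgctcgagcctc
ZNF223 (chr19:44052011-44052040, minus strand): agactaggagaCCGGAAGTgtcctctctgc

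In the genes shown from the cluster at 51.6 to 53.6 Mb the octamer sits on the strand of the gene just after the start site. *ZNF766*, *ZNF534* and *ZNF160* have CCGGAAGT and had a promoter peak in both libraries, and *ZNF468* has CAGGAAGT in a like setting and had none. At *ZNF534* no summit lay within 100 bp of the octamer. *ZNF578* of this cluster, not shown, has CCGGAAGT on the strand of the gene before the start site. It had a peak in the IFN-γ library only, with no summit within 100 bp of the octamer.
ZNF766 (chr19:52269580-52269609, plus strand): cgcctgcagacCCGGAAGTggatggcgtgg
ZNF534 (chr19:52429141-52429170, plus strand): ttcctgcagacCCGGAAGTcgagatcatgg
ZNF160 (chr19:53103400-53103429, minus strand): tgcccacagacCCGGAAGTggatcgtgcgg
ZNF468 (chr19:52857597-52857626, minus strand): ttcgcgcagacCAGGAAGTggatcccgtgg

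The near-identical paralogs *ZNF417* and *ZNF587*, which repress HERV-K elements, carry the octamer at the same place, 12 bp before the start site. The printed windows differ at 1 base, A23G (the *ZNF417* base first, positions counted from 1 at the 5′ end of the window).
ZNF417 (chr19:57916589-57916618, plus strand): tactagagaccCCGGAAGTctcagccttac
ZNF587 (chr19:57849833-57849862, minus strand): tactagagaccCCGGAAGTctcggccttac

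*ZNF417* had a weak promoter peak in both libraries (fold enrichment 3.85 on 8 fragments in the control library and 4.33 on 11 fragments in the IFN-γ library) and *ZNF587* had none. Within 500 bp of their TSSs, 100% and 99.8% of the 150-base windows of *ZNF417* and *ZNF587* occur at 1 place in the genome. Windows were compared by exact match, so 1 differing base makes a window count as unique. The *ZNF417* peak rests on too few fragments for a firm contrast with its paralog. The strongest octamer promoter of all was that of *ZNF865*, which lies outside the groups above.
ZNF865 (chr19:55605636-55605665, minus strand): cgagggcccgaCCGGAAGTgccgccccctc

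The first question was how often FLI1 was found at the promoters of these genes. A promoter peak is a peak that overlaps the 3 kb either side of the start site (TSS) of any transcript of the gene. In the control library 129 of the 240 genes (53.8%) had a promoter peak, against a background of 61.9% of all protein-coding genes. In the IFN-γ library 126 genes (52.5%) had one, against 59.7%. A peak was found in both libraries at 112 genes (46.7%, background 56%), in the control library only at 17 genes (7.08%, background 5.9%), in the IFN-γ library only at 14 genes (5.83%, background 3.7%) and in neither at 97 genes (40.4%, background 34.4%). The chromosome 19 genes were thus somewhat below the background in both libraries. Of the other 1236 protein-coding genes of chromosome 19, 64.4% and 60.6% had a promoter peak in the control and the IFN-γ library, and of the 236 ZNF genes on other chromosomes 78.0% and 75.8% did. These shares describe whole sets of genes in 2 libraries, and their differences were not tested. The IFN-γ list is longer, and when it was cut to its strongest peaks at the length of the control list, 104 genes had an IFN-γ promoter peak, 31 were found in the control library only and 6 in the IFN-γ library only. These were 43.3%, 12.9% and 2.5% of the 240, against 53.4%, 10.8% and 2.27% of all protein-coding genes.

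**Figure D1:**
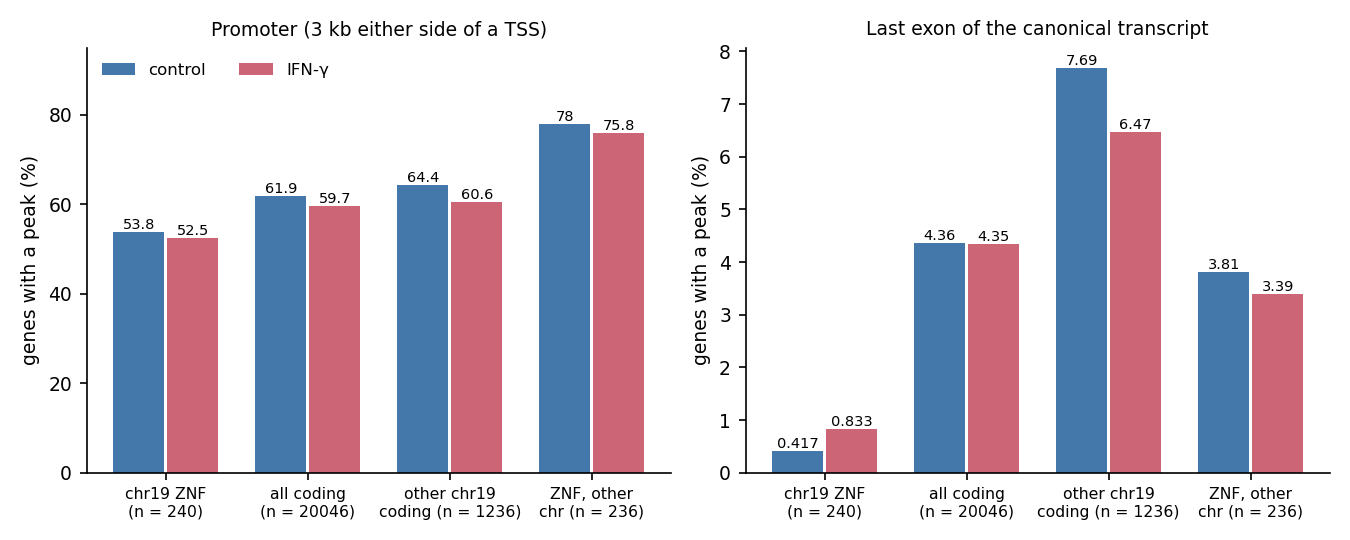
The bars give the share of genes (%) with a promoter peak (left) and with a last-exon peak (right) in the control and the IFN-γ library, 1 library each, for 4 gene sets with the number of genes under each; there are no error bars because there are no replicates. The chromosome 19 ZNF genes have the lowest bars in both panels: 53.8% and 52.5% at the promoter, and 0.417% and 0.833% in the last exon.

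The strongest promoter peak of a gene is the one with the highest −log10 p. Its fold enrichment ranged from 3.41 to 74.9 among the 129 genes of the control library, with a median of 10.1, against 10.5 over all protein-coding genes with a promoter peak. In the IFN-γ library it ranged from 3.11 to 48.9 with a median of 9.78, against 9.12. Where present, the peaks were therefore about as strong as over all protein-coding genes. At the ZNF genes of other chromosomes the medians were higher, 12.1 in the control and 11.2 in the IFN-γ library. Of the chromosome 19 genes, those with a peak in both libraries had the stronger ones, with median folds of 12.2 and 10.9. The genes with a peak in the control library only had a median fold of 4.87 on 10 fragments. Those with a peak in the IFN-γ library only had 4.34 on 12.5 fragments. Peaks found in 1 library thus mostly rested on few fragments.

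*ZNF865* had the highest fold of these genes in the control library, 74.9 on 158 fragments, and 38.6 on 181 fragments in the IFN-γ library. *ZNF558* followed with 53.0 on 124 fragments and 44.3 on 170 fragments. *ZNF561* was the highest in the IFN-γ library, with 48.9 on 135 fragments against 26.5 on 61 fragments in the control library. All 3 were peaks in both lists. The other genes with the best mean ranks were *ZNF121* (31.2 and 30.2), *ZNF787* (28.5 and 35.0), *ZNF333* (31.2 and 32.0), *ZNF837* (35.0 and 27.1) and *ZNF45* (35.0 and 24.6), with the control fold first. The summit of the *ZNF333* peak lay closest to a TSS of another gene, *ADGRE3*, so its assignment to *ZNF333* is uncertain. Some peaks served more than 1 gene: 35 of the 129 strongest promoter peaks in the control library and 35 of the 126 in the IFN-γ library also fell in the promoter window of another protein-coding gene. The same share was not counted over all protein-coding genes. The closest TSS to the summit belonged to the gene itself for 105 (81.4%) of the strongest peaks in the control and 107 (84.9%) in the IFN-γ library. Over all protein-coding genes with a promoter peak these shares were 75.9% and 75.5%.

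Among genes with a known role, the answer varied from gene to gene. *ZNF91* and *ZNF93*, which repress SVA and LINE-1 retrotransposons, were weak or negative: *ZNF91* had a peak in the IFN-γ library only (5.91 on 14 fragments) and *ZNF93* had none in either. *ZNF649* and *ZNF765*, which bind LINE-1 sequences, had none, and *ZNF808*, which represses MER11 elements and is needed for pancreas development, had a low peak in both (5.56 and 5.55). *ZNF274*, which brings *SETDB1* to the 3′ ends of zinc finger genes, had a clear peak in both libraries (16.9 on 50 fragments and 18.6 on 75 fragments). *ZNF224*, a repressor of the aldolase A gene, had 12.1 and 7.48, and *ZNF350* (ZBRK1), which works with BRCA1, had 7.93 and 6.31. The imprinted gene *ZNF331* had a peak in the IFN-γ library only (3.45), and *ZNF146* (OZF), which consists of fingers without a KRAB domain, in the control library only (4.53). *ZNF382*, *ZNF568* and *ZNF536* had no promoter peak in either library.

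Summits at these genes lay close to the TSS. The distance from the strongest promoter summit to the closest TSS of the gene had a median of 43 bp in the control library and 37 bp in the IFN-γ library, against 114 and 147 bp over all protein-coding genes with a promoter peak. Within 100 bp of a TSS lay 90 of 129 summits (69.8%) in the control and 89 of 126 (70.6%) in the IFN-γ library, against 47.4% and 42.6%. The ZNF genes of other chromosomes lay between, with medians of 50 and 53 bp and 58.7% and 60.9% within 100 bp. The chromosome 19 genes and all protein-coding genes have the same median number of distinct TSSs, 5.

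**Figure D2:**
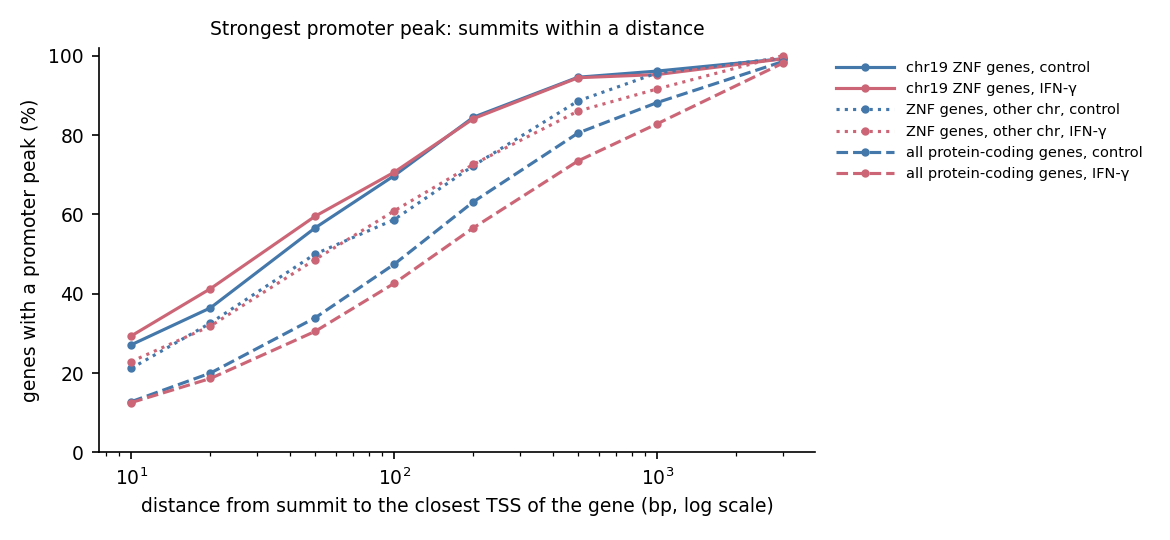
The lines give the share of genes with a promoter peak (%) whose strongest summit lies within the distance on the x axis (bp, log scale) of the closest TSS of the gene, for the chromosome 19 ZNF genes (solid), the ZNF genes of other chromosomes (dotted) and all protein-coding genes (dashed) in the control and the IFN-γ library. At 100 bp the solid lines are at 69.8% and 70.6%, the dotted at 58.7% and 60.9% and the dashed at 47.4% and 42.6%.

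The ETS octamer was common at these promoters. It was found in the canonical promoter of 48 of the 240 genes (20%), against 8.96% of all 20046 promoters of the same length, and of 20.3% of the ZNF genes on other chromosomes. There were 52 octamers, counting 1 position shared by a divergent gene pair for each gene, of which 46 were CCGGAAGT and 6 CAGGAAGT. They pointed mostly one way, with 41 on the strand opposite to the gene and 11 on the same strand, and 41 lay within 50 bp of the TSS. In each library a summit lay within 100 bp of 32 of the 52, with 29 of them near a summit in both libraries and 17 in neither. Strand, distance to the TSS and nearby summits were counted for the octamers of these genes only, here and by cluster below. Whether the octamers of all protein-coding promoters have like shares was not tested.

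The share with a promoter peak was higher among genes with the octamer, a difference that was not tested. Of the 48 genes with it, 32 (66.7%) had a promoter peak in the control and 36 (75%) in the IFN-γ library, and of the 192 genes without it 97 (50.5%) and 90 (46.9%) did. Over all protein-coding genes the shares were 84.4% and 84.9% with the octamer and 59.7% and 57.2% without. None of the 17 genes with a peak in the control library only had the octamer, while 4 of the 14 with a peak in the IFN-γ library only did. An IFN-γ summit lay within 100 bp of the octamer at *ZNF17* and *ZNF776*, and not at *ZNF284* and *ZNF578*. Over all protein-coding genes the octamer was present in 1.95% of the promoters with a peak in the control library only and in 4.31% of those with a peak in the IFN-γ library only, so 0 of 17 is near the background. The octamer was also present in 12 of the 97 promoters without a peak in either library (12.4%, against 3.61% over all protein-coding genes), among them *ZNF671*, described as a tumour suppressor in nasopharyngeal carcinoma, and the divergent pair *ZNF568* and *ZNF829*, which share 1 octamer between their start sites. A match is a description of the sequence and not a measured site.

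At the peaks themselves, 42 of the 129 strongest promoter peaks in the control library (32.6%) had the octamer within 100 bp of the summit, against 16.9% of those of all protein-coding genes, and 40 of the 126 in the IFN-γ library (31.7%), against 19.7%. The median fold was 13.7 with it and 8.97 without it in the control library, and 12.4 and 7.90 in the IFN-γ library. Over all protein-coding genes the medians were 17.5 and 9.58 in the control library, and 15.0 and 8.12 in the IFN-γ library. A GGAA core alone was near almost every summit, at 126 of 129 and 126 of 126 genes, against 94.9% and 97.4% over all protein-coding genes.

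**Figure D3:**
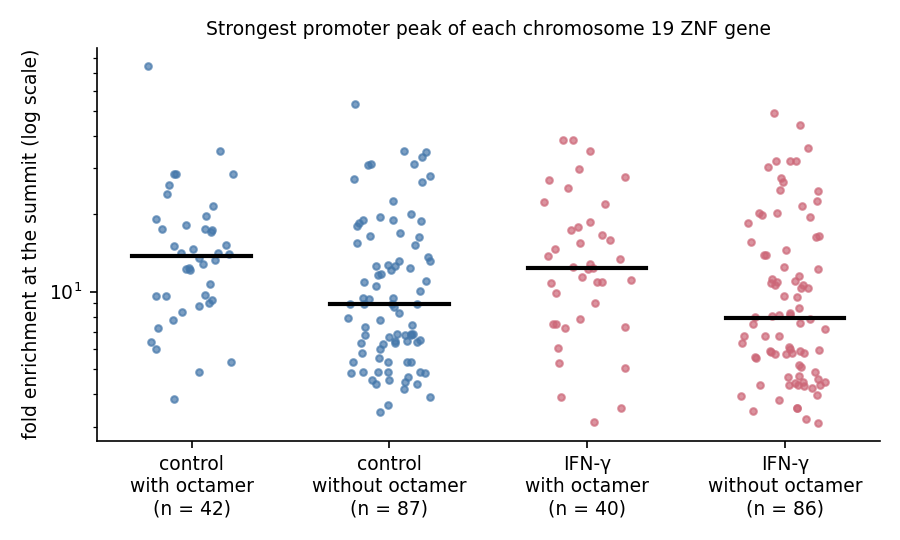
Each point is the strongest promoter peak of 1 chromosome 19 ZNF gene in 1 library, placed by its fold enrichment at the summit (y axis, log scale) and by whether an ETS octamer lies within 100 bp of the summit, with the horizontal bars at the medians. The medians are 13.7 with and 8.97 without the octamer in the control library, and 12.4 and 7.90 in the IFN-γ library, and the points overlap widely.

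The promoter peaks were spread unevenly along the chromosome. Genes whose starts lay no more than 500 kb apart were put in 1 cluster, which gave 10 clusters of at least 5 genes and left 12 genes outside them. The octamer was most frequent in the distal cluster (cluster 10, 57.2 to 58.5 Mb), where 22 of 41 promoters (53.7%) held it and 28 genes (68.3%) had a promoter peak in both libraries. In this cluster 23 of 24 octamers lay on the strand opposite to the gene. The longer word CCGGAAGTCCCGCC, chosen after the sequences were seen and searched on both strands, occurred in 41 of the 20046 promoters (0.205%), and 11 of these were chromosome 19 ZNF genes, 10 of them in cluster 10. Of the 11, 8 had a promoter peak in both libraries and 3 (*ZNF599*, *ZNF671* and *ZNF132*) in neither, while 90.2% of all genes with the word had a peak in both. The plain octamer CCGGAAGT already had a high share: 1153 of the 1230 protein-coding genes with it had a peak in both libraries. Whether the longer word adds to this was not tested. *ZNF550* had folds of 14.1 and 12.8 and *ZNF134* of 13.9 and 13.8 at this word, with summits within 7 bp of the octamer in both libraries.

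Cluster 7 (43.5 to 44.5 Mb) had 17 of 23 genes (73.9%) with a peak in both libraries and 3 with none, and the octamer in 9 promoters, of which 8 had a summit within 100 bp in the control and 7 in the IFN-γ library. *ZNF230* was among the clear examples, with a fold of 17.5 on 40 fragments in the control library and 21.9 on 83 fragments in the IFN-γ library. The word GACCGGAAGTG, also chosen after the sequences were seen, occurred in 72 of all promoters (0.359%) on either strand and in 7 of these genes, 4 of them in cluster 7. All 7 had a peak in both libraries, as did 97.2% of all genes with the word and 1153 of the 1230 with CCGGAAGT. The peak of *ZNF875*, 1 of the 7, lay at another TSS, and no summit was within 100 bp of its octamer. In cluster 8 (51.6 to 53.6 Mb) all 6 octamers lay on the strand of the gene, unlike those of clusters 7 and 10. The word GACCCGGAAGT, chosen the same way, occurred in 46 promoters (0.229%) on either strand, 3 of them in this cluster (*ZNF766*, *ZNF534* and *ZNF160*). *ZNF160* had folds of 15.0 and 25.2 and *ZNF766* of 17.3 and 12.4, whereas *ZNF534* was low at 5.35 and 3.91 with no summit within 100 bp of the printed octamer.

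Cluster 4 (19.7 to 24.1 Mb), which holds *ZNF91*, *ZNF93* and many other genes known for binding retrotransposons, stood at the other end. Of its 37 genes, 29 (78.4%) had no promoter peak in either library, 6 had one in both and 2 (*ZNF431* and *ZNF91*) in the IFN-γ library only. The 6 were *ZNF101*, *ZNF14*, *ZNF430*, *ZNF708*, *ZNF429* and *ZNF254*, and only *ZNF101* had a fold over 10 (15.2 and 11.5). None of the 37 canonical promoters held the octamer, and neither did any of the 13 of cluster 2 (8.51 to 9.79 Mb). Of these 13 genes, 9 (69.2%) had a peak in both libraries. Among these 9, *ZNF414* had an octamer outside the canonical promoter, 8 bp from its control summit and 13 bp from its IFN-γ summit. The promoters of cluster 4 also had the lowest CpG content of the clusters, with a median observed over expected ratio of 0.467 against 0.768 over all 240 genes. Their median GC content was 56%. Cluster 7 was lower in GC, at 55.7%, and had a peak in both libraries at 73.9% of its genes. Over the 240 genes the median CpG ratio was 0.795 where a peak was found in both libraries and 0.679 where none was found, and over all protein-coding genes it was 0.857 and 0.40. The part of CpG content in the result was not tested. Within 500 bp of the TSS, every gene of cluster 4 had 100% of its 150-base windows at 1 place in the genome by exact match. The median was 100% in every cluster.

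Cluster 6 (36.2 to 37.8 Mb) also had few peaks, with 13 of 24 genes in neither library and 4 in both, and although 5 of its promoters held the octamer, no summit lay within 100 bp of any of them. *ZNF529* was the exception in strength, with folds of 27.99 and 26.5. Cluster 9 (55.5 to 56.7 Mb) had the highest median folds of the 10 clusters, 28.4 in the control and 31.9 in the IFN-γ library among the 7 of 16 genes with a peak in both. *ZNF865*, *ZNF787* and *ZNF580* are in it. In cluster 1 (2.82 to 2.94 Mb), 3 of 5 genes (*ZNF554*, *ZNF57* and *ZNF77*) had a peak in the control library only, at folds of 4.49, 6.25 and 7.44.

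**Figure D4:**
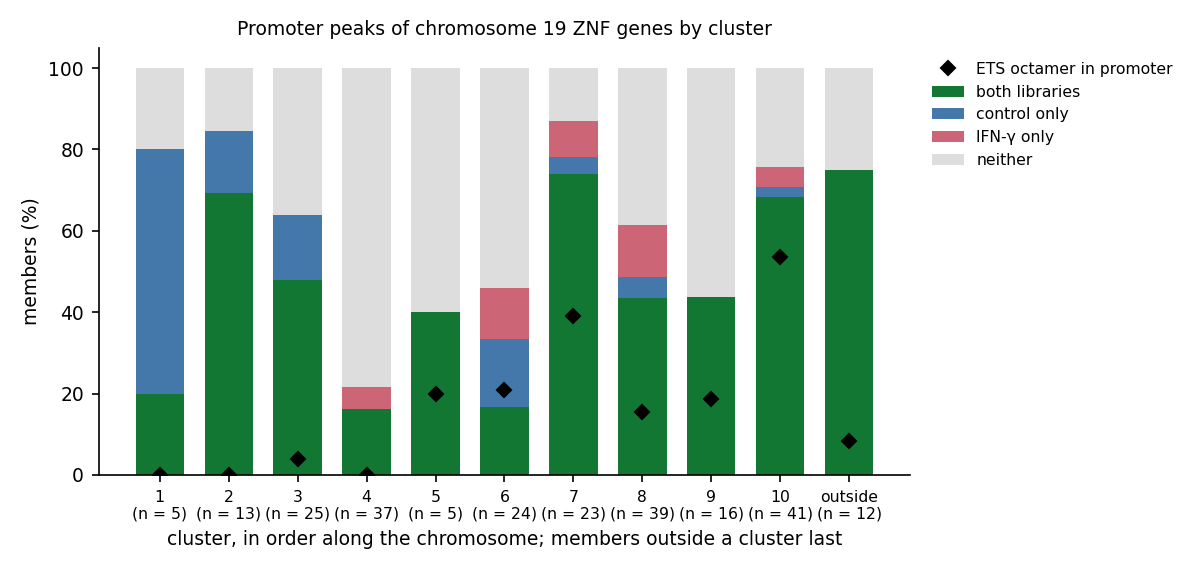
Stacked bars give the share of genes (%) in each of the 10 clusters, and in the 12 genes outside them, with a promoter peak in both libraries, in 1 library only or in neither, and black diamonds give the share of promoters with an ETS octamer. Cluster 4 has a peak in neither library at 78.4% of its genes and no octamer in a canonical promoter. Cluster 2 has no octamer in a canonical promoter and a peak in both libraries at 69.2%. Cluster 10 has a peak in both at 68.3% and an octamer in 53.7%.

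The second question was whether the strength of these promoter peaks differed between the control and IFN-γ libraries. Fragments were compared at overlapping promoter peaks, which 111 of the genes had, after division by the depth ratio of 1.46. The median ratio of IFN-γ to control was 0.893, against 0.856 over the 10993 protein-coding genes with such a pair, so these genes lay close to the general shift between the libraries. Ratios below 1 were found at 72 of the 111 genes (64.9%), against 66.8% of all. A ratio of at least 1.5 was found at 5 (4.50%, background 7.51%) and a ratio of at most 1 over 1.5 at 15 (13.5%, background 23.8%). The exact binomial 95% interval lay above 1 at 3 genes (2.70%, background 6.07%) and below 1 at 8 (7.21%, background 14.1%). Scaled by the median over all protein-coding genes instead, the median ratio of the 111 genes was 1.04, on the other side of 1, so it gives no direction. The intervals leave out the variation between replicates and assume that the depth ratio is exact.

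The 3 genes with an interval above 1 were *ZNF561*, with 61 fragments in the control and 135 in the IFN-γ library (ratio 1.52, 1.12 to 2.09), *ZNF575*, with 34 and 83 (1.68, 1.11 to 2.58), and *ZNF524* (1.501, 1.04 to 2.21). The IFN-γ summit of *ZNF561* lay closest to a TSS of ZNF561-AS1, and the strongest promoter summits of *ZNF524* lay closest to *FIZ1* and *ZNF865*, so these assignments are uncertain. The *ZNF561* summits lay at chr19:9621241 in the control and chr19:9621429 in the IFN-γ library, so its ratio compares different positions. The ratio of *ZNF175* was as high at 1.66, but on 17 and 41 fragments its interval was 0.921 to 3.11. Among peaks with at least 50 fragments in all, the lowest ratios were those of *ZNF324* (0.491, 0.281 to 0.843, on 35 and 25 fragments), *ZNF112* (0.562), *ZNF181* (0.569) and *ZNF264* (0.618). *ZNF865*, the strongest in the control library, had a ratio of 0.787 (0.632 to 0.980), and *ZNF837* had 0.650 (0.481 to 0.878). Cluster 7 had a median ratio of 1.26 over 17 genes, from 0.562 to 1.68, with 9 of the 17 above 1. The genes with the best p-value in 1 library only were *ZNF44* (10.9 on 22 fragments), *ZNF823* (8.27 on 16) and *ZNF77* (7.44 on 16) in the control library, and *ZNF284* (7.20 on 19), *ZNF776* (5.29 on 23) and *ZNF578* (6.12 on 16) in the IFN-γ library.

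The third question concerned the last exon, which encodes the fingers. A peak overlapped the last exon of the canonical transcript at 1 of the 240 genes in the control library (0.417%, background 4.36%) and at 2 in the IFN-γ library (0.833%, background 4.35%). Their last exons are long, with a median of 3354.5 bp against 1400 bp over all protein-coding genes. Per megabase of last exon there were 1.13 peaks in the control and 2.25 in the IFN-γ library at these genes, against 21.4 and 21.4 over all protein-coding genes. At the ZNF genes of other chromosomes there were 10.2 and 9.10 per megabase. These densities include peaks that reach into a promoter window. One gene had a last-exon peak in both libraries (0.417%, background 3.08%), 1 in the IFN-γ library only (background 1.27%) and 0 in the control library only (background 1.29%). The ZNF genes of other chromosomes had a last-exon peak at 9 and 8 of 236, and the other chromosome 19 genes at 95 and 80 of 1236. Counted over peaks that touch no promoter window of any gene, the numbers were 0 and 1 of 240, against 0.988% and 1.41% of all protein-coding genes. Over all protein-coding genes the count fell from 875 to 198 in the control and from 872 to 282 in the IFN-γ library. Most of the background thus came from peaks at promoters, and without them the numbers are too small for a contrast.

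The gene with a peak in both libraries was *ZNF580* (folds 14.1 and 10.7 on 28 and 38 fragments). Its summits lay outside the exon, 121 and 99 bp from the TSS of the neighbouring *ZNF581*, so this is a promoter peak that runs into the exon. *ZNF574* had a peak inside its last exon in the IFN-γ library only (chr19:42079490-42079870, fold 10.9 on 33 fragments). The summit fell in the coding sequence, 3529 bp from the closest TSS, and an octamer on the minus strand lay within 100 bp of it. The coding window around it is shown with that octamer, read as ACTTCCTG on the plus strand, in capitals.
ZNF574 (chr19:42079655-42079735, plus strand): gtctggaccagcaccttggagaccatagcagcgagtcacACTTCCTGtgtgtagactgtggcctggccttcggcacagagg

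The last exons of the 240 genes, 0.888 Mb in all, were also searched for the ETS core and the octamer. The same search was not made over all protein-coding genes, so these counts have no background. The last exons held 3118 matches to the C2H2 finger codon pattern (2 cysteine and 2 histidine codons at the spacing of a finger, on the coding strand), with a median of 13 per gene, and 1884 of them (60.4%) overlapped a GGAA core on either strand. The core recurred at set places in the finger: on the coding strand it began at base 14 of the pattern in 33.2% of the fingers and at base 13 in 13.5%.

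In all, the last exons held 8682 GGAA cores on both strands but 50 octamers in 42 genes, of which 43 were CAGGAAGT and 7 CCGGAAGT. A summit lay within 100 bp of none of the 50 in the control library and of 1, that of *ZNF574*, in the IFN-γ library, against 32 of the 52 promoter octamers in each library. The 2 forms are not evenly shared, since 46 of the 52 promoter octamers were CCGGAAGT. Taking CCGGAAGT alone, a summit lay within 100 bp of 30 of 46 in promoters and 0 of 7 in last exons in the control library, and of 29 of 46 and 0 of 7 in the IFN-γ library. By exact match the median gene had 100% of the 150-base windows of its last exon at 1 place in the genome, and the lowest had 73.1%. Windows that differ from a paralog at 1 base count as unique, so how reads were placed between close paralogs was not tested.

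Elsewhere in the gene bodies, outside promoter windows of the gene and its last exon, there were 13 peaks in 9 genes in the control library and 22 peaks in 17 genes in the IFN-γ library. These genes were 3.75% and 7.08% of the 240, against 17.9% and 24% of all protein-coding genes, and the median gene lengths were 25.5 and 27.4 kb. The ZNF genes of other chromosomes lay between, at 8.47% and 13.6%, with a median gene length of 26.2 kb. Of the peaks, 4 of the 13 and 3 of the 22 lay in the promoter window of another gene. *ZNF536*, a regulator of neuronal differentiation with no promoter peak, had 3 of them in the control and 4 in the IFN-γ library. One (chr19:30466599-30466964 in the control library) covers a run of 14 GGAA units and had folds of 9.25 on 18 fragments and 13.0 on 32 fragments. In the IFN-γ library a peak in *ZNF584* covers a run of 10 units, with a fold of 6.70 on 16 fragments. GGAA repeats are known as binding sites of the EWS-FLI1 fusion protein of Ewing sarcoma.

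The genes that act with KRAB zinc finger proteins were taken from a list of 18 co-repressors. All 18 had a promoter peak in the control library (background 61.9%), and 15 had one in the IFN-γ library (background 59.7%), with median folds of 10.7 and 7.89. The 3 found in the control library only were *TRIM28*, the KRAB co-repressor itself (4.87 on 9 fragments), *ATF7IP*, a partner of *SETDB1* (4.49 on 9), and *CBX1*, an HP1 protein (5.32 on 15). The maintenance methyltransferase *DNMT1* had the highest folds, 49.1 on 100 fragments and 37.8 on 142 fragments. *SETDB1* had 20.9 on 55 fragments and 22.3 on 116 fragments, a ratio of 1.45 (1.04 to 2.03). The median ratio over the 15 genes with a pair was 0.657, against 0.856 over all protein-coding genes. Intervals below 1 were those of *TASOR* (0.534, 0.287 to 0.981), *MPHOSPH8* (0.510, 0.284 to 0.903) and the H3K9 methyltransferase *EHMT1* (0.529, 0.335 to 0.830). Of all protein-coding genes with a pair, 14.1% had such an interval. The summits of *EHMT1* lay closest to ARRDC1-AS1. *TASOR* and *MPHOSPH8* are HUSH subunits, and another subunit, *PPHLN1*, had a ratio of 1.08 (0.740 to 1.59). The strongest control summit lay closest to a TSS of another gene for *ATF7IP*, *CBX3*, *CBX5*, *PPHLN1*, *MORC2*, *HDAC2*, *CHD3* and *EHMT1*. Their assignment in that library is uncertain. In the IFN-γ library the summits of *CBX5*, *PPHLN1* and *HDAC2* lay closest to a TSS of the gene itself. The list was not tested against other genes.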

How the data were processed

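The deposited data were narrowPeak lists, 1 per Flag ChIP library. According to the methods and the submitters' processing notes, reads were trimmed with Cutadapt 1.18, aligned to GRCh38 with Bowtie2 2.3.4.1, stripped of duplicates with Picard and called with MACS2 2.1.2 at a p-value cutoff of 0.01; whether the input entered the calling is not stated. The lists end at −log10 p values of 3.52 (control) and 3.46 (IFN-γ) and at −log10 q values of 1.30 and 1.32, a stricter limit than the stated p-value. The authors give for each peak the fold enrichment (a ratio) at the summit, −log10 p and −log10 q values, the summit offset and a score that was not used. Total read counts were not used here, and depth was taken from the lists: MACS computes the fold as pileup plus 1 over background plus 1 and its p as a Poisson tail, and whole pileups were recovered with a largest relative error of 6.21e-06. Pileups were scaled by the ratio of the lowest backgrounds, 1.46. Intervals are exact binomial at 95% and cover counting error only.

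Genes, TSSs and exons came from GENCODE 44, and 0 peaks ran past a chromosome end of GRCh38. Shared peaks overlapped by at least 1 bp, and words were searched on both strands. The genes, lists, clusters and alternatives were chosen with earlier results of these data known. The text names the 8 genes with the best mean rank, those with the best last-exon peaks, the 3 best genes of each library alone, the 4 highest and 4 lowest ratios on at least 50 fragments, 15 genes with a known role, and the 18 co-repressors; other genes were named after their values were seen. The recovery of pileups and the calls of promoter peaks, last-exon peaks and overlapping pairs were tested on simulated data and returned 100% of the known answers; the other steps were not simulated. Python 3.11.15, numpy 2.4.6, scipy 1.17.1, pandas 2.3.3, numba 0.67.0 and matplotlib 3.10.9 were used.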

Additional observations from a re-analysis of the deposited data

How the results depend on the processing

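Of the 60 alternative values computed for the counts, the median ratio and the octamer counts, 48 stayed within 1.5 times of the count reported or within the interval of the median (0.839 to 0.944), and 12 did not. Genes with a promoter peak in the IFN-γ library only numbered 9 at a q-value under 1e-05. With lists of equal length they numbered 6, and genes found in the control library only numbered 31. Last-exon peaks were found at 5 genes in the control and 8 in the IFN-γ library when the last exon of any transcript was used, and at 0 and 1 when the summit had to lie in the last exon or when the peak had to lie outside every promoter window. The median ratio was 1.04 when scaled by the median over all protein-coding genes, which by construction sets that median to 1. A GGAA core in place of the octamer was near the summit at 126 genes in each library, since the core is a shorter word. The cause of the other changes was not tested. The counts of genes with a promoter peak in each library and in both stayed within 1.5 times under every alternative run; the lowest were 109 in the control library and 93 in both, where the summit had to lie closest to an own TSS, and 104 in the IFN-γ library. A missing peak says little at this depth, since peaks of the control library alone rested on a median of 10 fragments and those of the IFN-γ library alone on 12.5. No paired analysis was possible because there was 1 library per condition and no test across replicates.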
